A study of Homo sapiens with 12 samples.

Results

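Regions of H3K27 acetylation that lie in introns, away from every annotated start site, were collected from HCT116 cells, an established colorectal cancer line. The 20000 highest-scoring peaks of each of 6 H3K27ac CUT&RUN libraries were pooled and merged within 100 bp, which gave 38598 regions. A region was called intronic distal when it lay more than 1 kb from the start of every protein-coding and lncRNA transcript of GENCODE version 44 (hg38) and its midpoint fell inside a protein-coding gene body but in no protein-coding exon. This rule gave 13334 regions, or 34.5% of all. The remainder comprised 11471 intergenic distal regions, 11219 promoter regions no more than 1 kb from a protein-coding start, 1725 regions near lncRNA starts and 849 distal regions in exons.

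All cells were HCT116. They were left untreated, or were treated for 24 hours with cobimetinib at 1 μM or with TNFα at 100 ng/ml, and each group had 2 replicate H3K27ac libraries. Cobimetinib inhibits MEK1, a kinase of the MAPK pathway. TNFα is an inflammatory cytokine that activates NF-κB and AP1. One IgG library was prepared for each of the 6 samples and is not analysed here, so no background was measured in the same way. Per the methods, the replicates are replicates of the treatment. Whether they were grown as separate cultures is not stated in the sources used here, so p-values measure the spread between these libraries only.

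CUT&RUN maps a chromatin mark by tethering a nuclease to an antibody and sequencing the fragments that are released. Acetylation of histone H3 at lysine 27 marks active promoters and active enhancers. An enhancer can lie within an intron of the gene it controls or of an unrelated neighbor, so the host gene named here is a position and not a target. AP1 is a dimer of FOS and JUN family proteins that binds the sequence TGACTCA, and its members are induced and phosphorylated downstream of MAPK signaling. NF-κB dimers bind related sites of the form GGANTTTCC.

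Several intronic regions carried tandem arrays of the AP1 word, defined as 3 or more copies of TGACTCA on either strand with starts 26 to 32 bp apart. The 4 arrays below lie in regions held by all 6 libraries and are shown to compare their repeat units. Both TNFα libraries ranked above both cobimetinib libraries at the WNT9A, ABLIM3 and PTPRN2 regions but not at TRIM33. Sequences are from the plus strand of hg38, 5′ to 3′, with each AP1 word in capitals (TGAGTCA is the same word on the opposite strand).

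WNT9A (first intron, chr1:227934920-227935147): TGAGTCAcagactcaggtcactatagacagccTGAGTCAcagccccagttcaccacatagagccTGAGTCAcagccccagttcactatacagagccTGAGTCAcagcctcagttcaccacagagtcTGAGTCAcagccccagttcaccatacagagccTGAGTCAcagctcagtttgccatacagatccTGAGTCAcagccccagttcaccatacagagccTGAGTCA
TRIM33 (chr1:114473554-114473616): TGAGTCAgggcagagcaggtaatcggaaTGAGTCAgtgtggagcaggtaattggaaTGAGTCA
ABLIM3 (chr5:149187678-149187740): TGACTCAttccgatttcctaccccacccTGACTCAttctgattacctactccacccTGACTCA
PTPRN2 (chr7:157932724-157932819): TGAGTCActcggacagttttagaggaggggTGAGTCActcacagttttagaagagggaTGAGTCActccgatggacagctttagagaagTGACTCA

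The arrays fell into different repeat units. Read on the strand that spells TGACTCA, the first 28 bases of the ABLIM3 array matched those of the TRIM33 array at 23 of 28 positions, and in both arrays every step between neighboring words was 28 bp. The WNT9A array held 8 words with steps of 30 to 32 bp and matched the TRIM33 unit at 11 of 28 positions. The PTPRN2 array, with steps of 28 to 31 bp, matched it at 14. It was read on the strand where most of its words spell TGACTCA, but its first word there spells TGAGTCA. These 28 bases begin with the AP1 word itself, so part of each match follows from the definition of an array.

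A second set of sequences is shown for regions with 1 or 2 AP1 words that are among the best ranked of the presence sets described below. Each is 61 bp centered on the word nearest to the region's midpoint, in the same orientation and with each AP1 word in capitals.

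PHLDB2 (chr3:111923502-111923562): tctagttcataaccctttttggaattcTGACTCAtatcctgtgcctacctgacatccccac
ATP9A (chr20:51631523-51631583): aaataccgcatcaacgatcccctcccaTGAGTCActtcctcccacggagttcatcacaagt
PDE4DIP (chr1:148975940-148976000): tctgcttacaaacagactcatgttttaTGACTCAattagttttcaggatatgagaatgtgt
SMIM36 (chr17:55459271-55459331): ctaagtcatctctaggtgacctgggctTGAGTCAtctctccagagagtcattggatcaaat
MIP (chr12:56461331-56461391): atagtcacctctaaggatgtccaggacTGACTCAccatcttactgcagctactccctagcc
RIN2 (chr20:19977104-19977164): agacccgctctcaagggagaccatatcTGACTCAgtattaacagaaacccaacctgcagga
SYNE3 (chr14:95483358-95483418): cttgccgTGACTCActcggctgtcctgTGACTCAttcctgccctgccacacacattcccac

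A library held a region when one of its 20000 best peaks overlapped it by at least 1 bp. Untreated replicate 1 held 4897 intronic distal regions and untreated replicate 2 held 6454. The cobimetinib libraries held 5155 and 5060, and the TNFα libraries 5171 and 5409. Untreated replicate 2 stood apart from the other libraries. It was the only holder of 3671 regions, or 27.5% of the intronic set, whereas each other library was the only holder of 424 to 873. These solitary regions were narrow, with a median width of 254 bp against 399 to 590 bp for those of the other libraries. In its list, 7102 peaks were tied at the score of the last peak taken, and 825 of its 3671 solitary regions rested on a peak with that tied score. Spearman's correlation of log2 scores over the intronic regions was 0.172 between the untreated replicates, 0.805 between the cobimetinib replicates and 0.813 between the TNFα replicates (a description over 13334 regions that share a merging step). Results that use the untreated group are therefore given with and without untreated replicate 2.

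**Figure D1:**
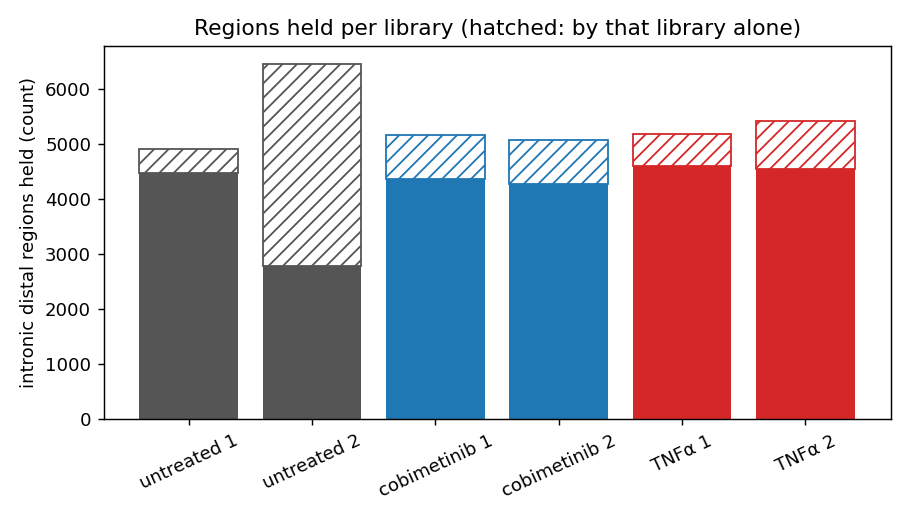
Number of intronic distal regions held by each of the 6 libraries (bars, count), with the part held by no other library hatched. Untreated replicate 2 held 6454 regions, of which 3671 were held by it alone, while the other libraries held 4897 to 5409 with 424 to 873 held alone.

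The chromatin of HCT116 cells was checked at the promoters of marker genes. Of 10 genes of colon epithelium, the promoters of KRT8 and CLDN4 were held by all 6 libraries, those of EPCAM and CLDN7 by 5, and CDH1, VIL1 and LGR5 by none. Among 11 markers of other cell types, 9 were held by no library, including PTPRC of blood cells and ALB of hepatocytes. The exceptions were COL1A1, a collagen gene of stromal cells, with all 6 libraries, and PECAM1 of endothelium with 2.

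Acetylated intronic regions were shorter and less widely shared than promoters. Their median width was 649 bp (quartiles 310 and 1238 bp), against 605 bp for intergenic distal regions and 1517 bp for promoter regions. Median GC content of the central 500 bp was 43.0% in introns, 43.2% between genes and 63.6% at promoters. All 6 libraries held 1717 intronic regions, or 12.9%, and a single library held 7122, or 53.4%. Promoter regions were held by all 6 libraries in 36.6% of cases. The median distance from an intronic region to the nearest protein-coding start was 20196.5 bp. Regions just beyond the 1 kb limit, at 1001 to 1500 bp from a start (379 regions), had a median width of 704 bp and the AP1 word in 30.6%. Intronic regions at 501 to 1000 bp, which the rule left out (524 regions), had a median width of 675 bp and the word in 22.7%.

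These differences were compared within each library, so that the library and not the region was the unit. Libraries held a mean of 40.2% of the intronic regions and 70.8% of the promoter regions, a difference of −30.7 percentage points (SD 15.7, n = 6, lower in 6 of 6 libraries, exact sign-flip permutation p = 0.0312 two-sided, adjusted p = 0.0375 over 6 tests). The difference was −0.532 in untreated replicate 2 and reached −45.0 in the library with the widest gap. The share held comes from the same top lists that defined the regions, so its test is no independent support. Regions held by untreated replicate 2 alone made up 27.5% of intronic and 2.7% of promoter regions. These count as not held in every other library, which widens the gap there by construction. Against intergenic distal regions the share held differed by −0.381 points (SD 1.3, n = 6, exact permutation p = 0.438), which was smaller than the spread between libraries. The median width of the best peak on a held intronic region was 41.4 bp greater than on a held intergenic region (SD 12.0, n = 6, range 27 to 53 bp, exact permutation p = 0.0312, adjusted p = 0.0375). It was 219 bp below the promoter value, with a mean difference of −219.0 bp (SD 51.1, n = 6, exact permutation p = 0.0312, adjusted p = 0.0375). The smallest p that 6 libraries allow is 0.03125.

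The AP1 word was a frequent feature of intronic regions. It was found in the central 500 bp of 30.2% of them (95% Wilson interval 29.4 to 31.0%, which covers counting error only), compared with 23.1% of all 38598 regions, 29.8% of intergenic distal and 7.8% of promoter regions. A control word of the same letters, ACTCAGT, was present in 8.16% of intronic regions. It can overlap the AP1 word, as it does in the RIN2 sequence above. Among the regions each library held, the share was on average 31.7 percentage points higher in introns than at promoters (SD 7.85, n = 6, higher in 6 of 6 libraries, exact permutation p = 0.0312, adjusted p = 0.0375). It was also 2.12 points higher in introns than between genes (SD 0.639, n = 6, range 1.53 to 3.24, exact permutation p = 0.0312, adjusted p = 0.0375). Shared regions carried the word more often. It occurred in 46.4% of the 1717 intronic regions held by all 6 libraries (44.0 to 48.7%) but in 9.51% of those held by untreated replicate 2 alone (8.6 to 10.5%). Leaving out the regions that only untreated replicate 2 held raised the share over the rest to 38.1%.

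Words of other factors also differed in frequency between introns and promoters. GGGCGG, bound by SP and KLF factors, occurred in 11.3% of intronic and 70.9% of promoter windows. CCGGAAG, bound by ETS factors, occurred in 1.98% and 17.2%. Words of TEAD (ACATTCC, 10.2% against 4.23%), RUNX (TGTGGTT, 11.2% against 4.65%), TCF (CTTTGAT, 7.88% against 2.89%), FOX (TGTTTAC, 8.54% against 3.81%), HNF4 (CAAAGTC, 7.53% against 4.91%), CDX (TTTATNG, 28.6% against 9.54%) and GATA factors (AGATAA, 28.4% against 10.1%) were more common in introns. All words were searched on both strands, none contains another, and base composition differs between these classes.

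Position along the host gene was read from the intron numbers of the canonical transcript, which could be assigned to 11940 regions. The first intron held 3154 of them, or 26.4% (25.6 to 27.2%). For comparison, the first intron made up on average 26.5% of the total intron length of their host genes. Regions held by all 6 libraries lay in the first intron in 34.1% of 1503 cases (31.8 to 36.6%), where it made up 28.8% of intron length. Those held only by untreated replicate 2 lay there in 21.9% of 3319 cases (20.5 to 23.3%), against 24.3% of length. Over all regions the median position was 49.6% of the way along the gene.

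The intronic regions with the best ranks included regions at U2 small nuclear RNA genes. The best mean rank over all 6 libraries belonged to a region of 721 bp in the gene body of CCDC200 (chr17:43246180-43246900). Its ranks were 3 and 41 untreated, 3 and 5 with cobimetinib and 9 and 10 with TNFα. An annotated U2 gene, whose RNA is part of the spliceosome, started 316 bp from it. A second region of CCDC200 (chr17:43251370-43252104), with ranks of 6 and 58, 17 and 6, and 35 and 19 in the same order of libraries, covered the start of another U2 gene. Next came a region in the DUX4 gene body on chromosome 4, a germline transcription factor gene within a repeat array, with ranks of 18 and 31, 61 and 8, and 7 and 7. A region in OR2A42, an olfactory receptor gene, ranked 16 and 162, 21 and 17, and 16 and 16. The fifth was in CELF5, an RNA-binding protein gene, with ranks of 29 and 78, 29 and 98, and 27 and 28. All 5 regions were near the top of every list. Whether repeated sequence or background contributes to these scores was not tested, since the IgG libraries were not analysed. Among all intronic regions, 306 (2.29%) had, within 1 kb, the start of a gene that is neither protein-coding nor lncRNA, such as a pseudogene or small RNA gene.

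Intronic regions were spread over many genes. They fell in 6379 of 20046 protein-coding genes, and 3386 of these hosts (53.1%) contained a single region. At least 5 regions were found in 631 genes and at least 10 in 102 genes. The median host gene was 82.8 kb long and the median protein-coding gene 27.4 kb. A region lay in more than 1 gene body in 733 cases and was then counted for each.

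PCDH7, which encodes a protocadherin of the cell surface, contained the most regions. Its 36 regions over 426.4 kb on chromosome 4 correspond to 8.44 per 100 kb, against 0.966 per 100 kb over all protein-coding genes. The 2 introns of its canonical transcript held 23 and 13 of them. A chain of 12 regions with gaps of at most 10000 bp extended over 75.6 kb (chr4:30801471-30877028), and a chain of 13 in PALLD over 61.9 kb. All 6 libraries held 17 of the 36 regions, and 1 was held by untreated replicate 2 alone. The untreated libraries held 24 and 20, the cobimetinib libraries 26 and 28 and the TNFα libraries 26 and 25, so the group counts lay close together. RAD51B, a gene of homologous recombination, followed with 34 regions over 910.4 kb, of which 13 lay in intron 7 of the canonical transcript. Its counts were 19 and 18 untreated, 20 and 20 with cobimetinib and 21 and 21 with TNFα. PALLD, an actin-associated scaffold protein, had 25 regions with 21 of them in intron 2. Its libraries held 13 and 9 untreated, 12 and 17 with cobimetinib and 15 and 16 with TNFα, so the cobimetinib and TNFα counts overlapped.

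The other leading hosts contained 17 to 22 regions each. MPP7, a junction scaffold, contained 21 regions at 7.41 per 100 kb, with 9 and 16 held in the untreated, 10 and 12 in the cobimetinib and 15 and 14 in the TNFα libraries. PARD3, a polarity scaffold, contained 21 regions, of which 13 were held by a single library and 6 by untreated replicate 2 alone. PHLDB2, which anchors microtubules at the cell cortex, contained 18. Its untreated libraries held 14 and 12 and its TNFα libraries 13 and 12, both above the 8 and 10 of the cobimetinib libraries. DST, a cytoskeletal linker of hemidesmosomes, also contained 18, with 7 to 9 held in every library.

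CUX1, a homeobox factor, contained 20 regions, 11 of them with the AP1 word, and the cobimetinib libraries held 16 and 17 of them, more than the 13 and 8 of the untreated or the 12 and 12 of the TNFα libraries. RUNX1, a Runt-domain factor, contained 19 regions, 12 of them with the AP1 word, and the order was different. The TNFα libraries held 14 and 15, above the 10 and 10 of the cobimetinib and the 12 and 9 of the untreated libraries. ZBTB20, a zinc finger repressor, contained 21. The rest of the 15 were VTI1A, a SNARE of vesicle fusion (22 regions), TANGO6, of Golgi organization (19), NSMCE2, a SUMO ligase of the SMC5/6 complex (18, of which 12 were held by all 6 libraries), CMIP (17) and RPTOR, the scaffold of mTORC1 (17). Without untreated replicate 2, all 15 of these genes stayed among the 15 leading hosts. The orders of groups within single hosts, here and for PHLDB2 above, are counts of 2 libraries against 2 and were not tested. The share of all host genes whose groups do not overlap is not given here, so no order is read as a response.

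**Figure D2:**
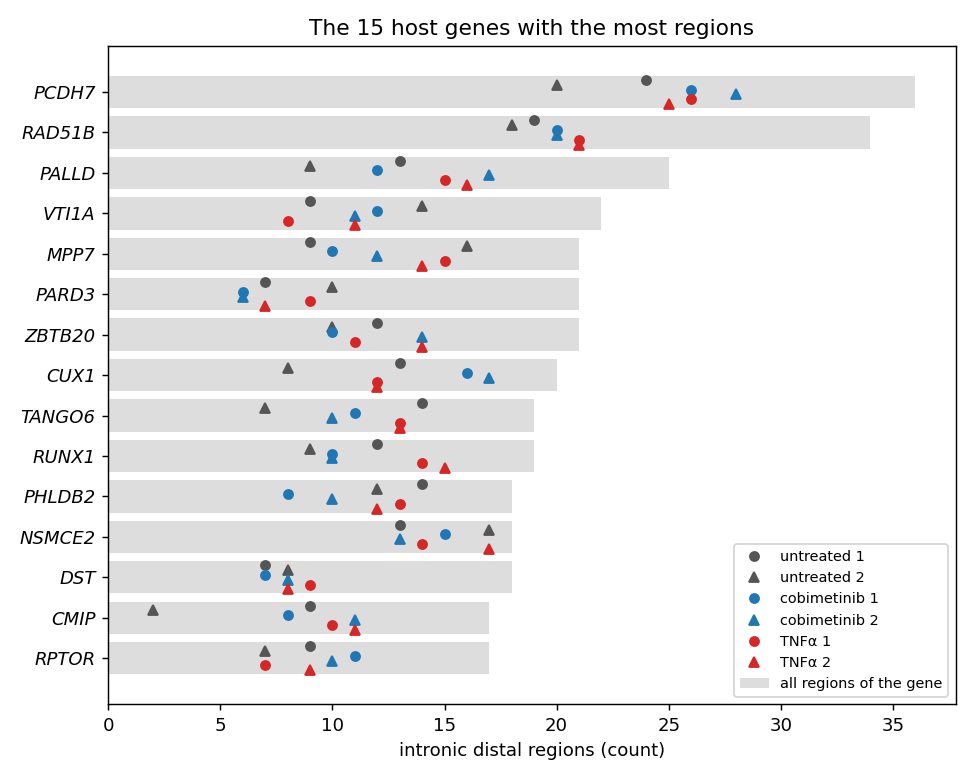
Number of intronic distal regions (horizontal axis, count) in the 15 host genes with the most regions. Gray bars give all regions of a gene and symbols the number held by each library, with circles for replicate 1 and triangles for replicate 2. For CUX1 the cobimetinib symbols lie highest at 16 and 17, and for RUNX1 the TNFα symbols at 14 and 15. These orders were not tested.

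Genes of 13 pathway and function lists (265 entries) were then examined as hosts. Held counts of single genes are given as descriptions. With 2 libraries against 2 they carry no test, and the share of all hosts whose groups do not overlap is not given here. Of the feedback and target genes of MAPK signaling, 8 of 20 contained a region, with 15 regions in all and 4 of them held by all 6 libraries. SPRED2, an inhibitor of RAS signaling, had 4 of the 15 regions, and all 6 libraries held 2 of its regions. Kinases and adaptors of the pathway contained 30 regions in 10 of 20 genes. MAP2K1, which encodes MEK1 itself, had 5 regions, of which the untreated libraries held 3 and 4, the cobimetinib libraries 1 and 1 and the TNFα libraries 3 and 2. KSR1, a scaffold for RAF and MEK, had 4 regions, of which the cobimetinib libraries held 3 and 3 and each other library 1. Counts this small in single genes give no order between the groups. RASAL2, a RAS GTPase-activating protein, had 9.

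Receptor tyrosine kinase genes contained 48 regions in 14 of 20 genes, and 11 were held by all 6 libraries. MET, the receptor for hepatocyte growth factor, had 9 regions at 7.13 per 100 kb. EGFR had 5, of which 4 were held by all 6 libraries and the fifth was held by both TNFα libraries. ERBB4 had 7, but 6 of these were held only by untreated replicate 2. Of the TNF and NF-κB genes, 11 of 25 contained a region. TRAF3, a signaling adaptor, had 8 and TNFAIP8, an apoptosis regulator, had 4. The 26 regions of this list included 3 TNFα gained, 2 cobimetinib gained, 3 TNFα only and 3 cobimetinib only regions, sets that are defined below and hold 3.56%, 3.92%, 5.41% and 4.39% of all regions. Counts this small give no order between the treatments. The AP1 family list contained 10 regions in 4 of 13 genes, and each library held 6 of them.

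The density of regions differed between the lists. Integrin, laminin-332 and hemidesmosome genes had 53 regions in 13 of 18 genes, at 2.91 per 100 kb, and YAP-TEAD genes had 48 in 13 of 18 at 2.82, beside 0.966 over all protein-coding genes and 1.17 to 2.56 in the other lists except that of the fragile sites. Regulators of actin and small GTPases had 142 regions in 28 of 31 genes, 25 of them held by all 6 libraries. MYO1E, an unconventional myosin, led this list with 15 regions, of which the untreated libraries held 13 and 10, the cobimetinib libraries 7 and 7 and the TNFα libraries 9 and 9. TIAM1, a RAC exchange factor, had 9, with 8 and 6 held in the untreated, 4 and 2 in the cobimetinib and 7 and 7 in the TNFα libraries. WWTR1, which encodes the YAP paralog TAZ, had 10 regions with 5 and 1, 3 and 4, and 6 and 5 held in the same order of groups. SMAD3, a transducer of TGF-β, had 9 regions and TGFBR2, its receptor, 8. Cell junction genes had 89 regions in 16 of 21 genes, Wnt genes 29 in 11 of 20, TGF-β and SMAD genes 46 in 13 of 19, and intestinal transcription factors 17 in 7 of 20. TCF7L2, the main TCF factor of the colon, had 5.

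Very long genes of common fragile sites had fewer regions per length. There were 103 regions over 33846 kb, or 0.304 per 100 kb, and 56 of these (54.4%) were held only by untreated replicate 2, against 27.5% of all intronic regions. Only 2 (1.94%) were held by all 6 libraries. FHIT had 9 regions and MACROD2 7.

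To ask how intronic regions responded when MAPK signaling was inhibited or AP1 stimulated, regions were first compared by presence. A lost region was one that both untreated replicates held and both treated replicates lacked, and a gained region the reverse. With 2 libraries against 2 and no read counts, these counts carry no test. Cobimetinib lost regions numbered 211 in introns, or 1.58% of the intronic set, beside 1.6% of all 38598 regions. Cobimetinib gained regions numbered 618 (4.63%, beside 3.92% of all regions). TNFα lost regions numbered 128 (0.96%, beside 1.0%), and TNFα gained regions 575 (4.31%, beside 3.56%). The intronic shares were thus near those of all regions in each set. Without untreated replicate 2 the counts were 1107 lost and 731 gained with cobimetinib, and 870 lost and 678 gained with TNFα. Leaving out a library relaxes the rule for lost regions by construction, and the lost counts rose by more than 1.5 times while the gained counts did not.

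The treatments were also compared directly, which leaves the untreated libraries out. TNFα only regions, held by both TNFα libraries and neither cobimetinib library, numbered 874 (6.55%, beside 5.41% of all regions). Cobimetinib only regions numbered 665 (4.99%, beside 4.39%). Untreated replicate 1, which took no part in this division, held 418 of the TNFα only regions (47.8%) and 185 of the cobimetinib only regions (27.8%), beside 36.7% of all intronic regions. It had some deposited peak on 92.9% and 87.4% of them, beside 63.7% of all intronic regions. Untreated replicate 2 held 20.7% and 16.5%, beside 48.4% of all intronic regions. All intronic regions include 3671 that untreated replicate 2 held alone, and these cannot enter either set. The shares of all intronic regions are therefore no baseline for the shares of the sets, and no direction is read from them. In a bulk library, a mark carried by fewer cells and a weaker mark in every cell cannot be told apart.

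The AP1 word was more frequent in TNFα only than in cobimetinib only regions. It was present in 52.4% of TNFα only regions (49.1 to 55.7%) and 27.1% of cobimetinib only regions (23.8 to 30.6%), beside 46.5% and 22.7% when regions of all classes were taken. It was present in 49.8% of cobimetinib lost (43.1 to 56.5%), 29.1% of cobimetinib gained (25.7 to 32.8%), 51.0% of TNFα gained (46.9 to 55.0%) and 39.8% of TNFα lost regions (31.8 to 48.5%). Without untreated replicate 2 these shares were 44.9%, 30.6%, 51.3% and 34.0%. By library, the word was in 44.3% and 24.9% of the intronic regions held in the untreated, 38.6% and 38.0% in the cobimetinib and 46.2% and 43.8% in the TNFα libraries. Both TNFα values lay above both cobimetinib values, but 2 libraries against 2 cannot give an exact permutation p below 0.333. The control word ACTCAGT was in 10.6% of TNFα only and 7.22% of cobimetinib only regions.

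The NF-κB word GGANTTTCC was also more frequent in TNFα only than in cobimetinib only regions, at a lower level. Unlike the AP1 word, it was about as frequent in cobimetinib lost (2.37%, 1.02 to 5.43%) as in cobimetinib gained regions (2.59%, 1.6 to 4.16%). It occurred in 5.91% of TNFα gained (4.26 to 8.15%), 5.38% of TNFα only (4.07 to 7.08%) and 1.35% of cobimetinib only intronic regions (0.714 to 2.55%), beside 2.59% of all intronic regions. Over all classes these shares were 7.27%, 5.55% and 1.83%, so the intronic regions of the TNFα sets did not have it more often than the sets as a whole. The TNFα libraries had it in 3.38% and 3.49% of the regions they held and the other 4 libraries in 2.18% to 2.7%. The TEAD word occurred in 14.6% of cobimetinib only (12.1 to 17.5%) and 8.35% of TNFα only regions (6.7 to 10.4%), but in 11.7% and 10.2% over all classes, where the shares lay closer together. GGGCGG occurred in 15.9% and 7.44% of the intronic regions and in 29.8% and 15.8% over all classes. Intervals for these sets treat regions as independent and were not used as tests between libraries.

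**Figure D3:**
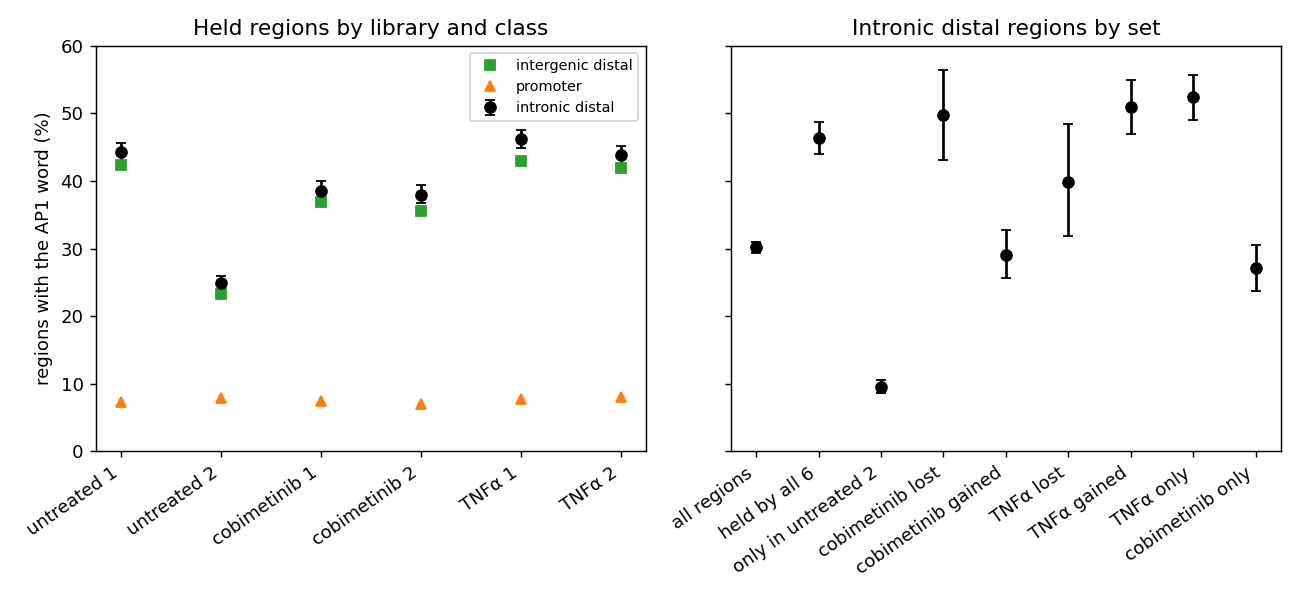
Percent of regions with the AP1 word TGACTCA (either strand) in the central 500 bp. The left panel gives the regions held by each library, for intronic distal (circles), intergenic distal (squares) and promoter regions (triangles), and the right panel gives intronic distal regions by set. Bars are 95% Wilson intervals. TNFα only regions had the word in 52.4% and cobimetinib only regions in 27.1%, and regions held only by untreated replicate 2 in 9.51%.

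Levels were then compared by limma on log2 of the best deposited peak score of each region, quantile normalized over all regions, with Benjamini-Hochberg adjustment over the 38598 regions. With all libraries of the groups compared, no region passed an adjusted p of 0.05 in any comparison (0.0% of all regions for cobimetinib against untreated, 0.0% for TNFα against untreated and 0.0% for TNFα against cobimetinib). The lowest adjusted p of an intronic region in limma was 0.58, 0.637 and 0.11 in that order. At an unadjusted p under 0.05, the comparison of cobimetinib with untreated cells had 545 intronic regions (4.09%, beside 4.34% of all regions), of which 280 were higher and 265 lower with cobimetinib. TNFα against untreated cells had 441 (3.31%, beside 3.1%), of which 362 were higher and 79 lower. Without untreated replicate 2, the single untreated library left is assumed in the fit to vary like the treated ones. The median difference from untreated over intronic regions was then 0.0 for cobimetinib and 0.0 for TNFα. With all libraries it was −0.0881 and 0.0. Calls of fits that left 1 library in a group lay mostly on the side where that group was higher, so their direction is not read. At an unadjusted p under 0.05 and with all libraries, TNFα against cobimetinib had 2508 intronic regions (18.8%, beside 16.7%), of which 1433 were higher and 1075 lower with TNFα. These fits have 2 residual degrees of freedom per region, and the absence of calls does not show that levels were equal.

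Among fits that kept all libraries of the groups compared, TNFα against cobimetinib was the only comparison whose number of calls depended on the fit. When only the 22930 regions held by at least 2 libraries were tested by limma, 748 of 6212 intronic regions passed an adjusted p of 0.05, with 472 higher and 276 lower with TNFα, beside 7.4% of the regions of all classes tested. Regions held by both libraries of 1 group entered that fit through the group in which they were high, so this count is not independent of presence. With the same restriction neither comparison with untreated cells gave a call (0 regions, unadjusted p under 0.05 for 2940 and 1914 regions of all classes).

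The region that led both the cobimetinib lost and the TNFα only sets lay in intron 5 of PHLDB2 (chr3:111922708-111924686), 11098 bp from a protein-coding start, and contained the AP1 word shown above. It ranked 396 and 2967 untreated, 68635 and 61494 with cobimetinib and 93 and 93 with TNFα. The cobimetinib libraries lay far below both other groups, with no overlap. The difference of its normalized log2 score between cobimetinib and untreated cells was −3.19 (SE 0.46, limma adjusted p = 0.58). With TNFα it was 4.31 above cobimetinib (SE 0.19, limma adjusted p = 0.11, and adjusted p = 0.00608 among regions held by at least 2 libraries). This region and those named below for a set were chosen by presence and rank in these same libraries. Their directions were thus fixed by the choice, and their differences and p-values are no independent support.

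Other cobimetinib lost regions showed smaller changes. A region in intron 15 of ATP9A, a phospholipid transporter, ranked 3416 and 4153 untreated, 42280 and 36362 with cobimetinib and 7915 and 7972 with TNFα. The difference from untreated was −2.01 (SE 0.25, limma adjusted p = 0.58). In intron 22 of HDAC9, a histone deacetylase, a region ranked 6136 and 1900 untreated, 21598 and 25379 with cobimetinib, and 386 and 1786 with TNFα. It belonged to the TNFα only set as well, and its TNFα libraries were 2.35 above cobimetinib (SE 0.3, limma adjusted p = 0.11, and 0.0248 among regions held by at least 2 libraries).

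Cobimetinib gained regions were led by intron 5 of NEDD4L, a ubiquitin ligase of ion channels. The region (chr18:58268456-58271081) ranked 234 and 1974 with cobimetinib, 20434 and 85951 untreated and 81348 and 62293 with TNFα. It was 2.76 above untreated (SE 0.5, limma adjusted p = 0.58), and TNFα was below cobimetinib by a difference of −3.39 (SE 0.46, limma adjusted p = 0.11). NEDD4L contained 4 cobimetinib gained regions among its 8, beside 3.92% of all regions, and was among the genes with the most. This count was not tested. Untreated replicate 1 fell just short of the top list at this region. Intron 5 of RRM2, which encodes a subunit of ribonucleotide reductase, contained a region at 1501 bp from a start with ranks of 1081 and 5075 under cobimetinib, 27502 and 100181 untreated, and 83800 in 1 TNFα library with no peak in the other. Intron 14 of TIAM2, a RAC exchange factor, ranked 2547 and 3800 with cobimetinib and at best 41380 elsewhere. The first intron of WFS1, an endoplasmic reticulum protein, ranked 2681 and 3879 with cobimetinib and at best 28514 elsewhere. RRM2 and WFS1 had no AP1 word in the region, whereas NEDD4L had 1 and TIAM2 had 2. Of the TNFα gained and TNFα only regions named here, those of MGAT4C and LMF1 had none and the others 1 or 2.

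TNFα gained regions were led by the first intron of MGAT4C, a glycosyltransferase gene. Its region ranked 2733 and 728 with TNFα, 27350 and 49831 untreated, and 62260 in 1 cobimetinib library with no peak in the other. The difference from untreated was 2.41 (SE 0.31, limma adjusted p = 0.637). A region of PDE4DIP, a centrosomal scaffold gene, ranked 1092 and 2766 with TNFα and 25302 in untreated replicate 1, with no peak in the other 3 libraries. The SMIM36 region was alike, with ranks of 1323 and 4626 under TNFα, 33819 in untreated replicate 1 and no peak elsewhere. A region in intron 3 of CMIP ranked 2181 and 3031 with TNFα, 25055 in untreated replicate 1 with no peak in replicate 2, and 32236 and 63711 with cobimetinib. All 4 regions were above both cobimetinib libraries without overlap.

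Among the TNFα only regions, intron 3 of LMF1, a lipase chaperone gene, had the largest difference of those named. It ranked 236 and 312 with TNFα and 12189 in untreated replicate 1, with no peak in the other 3 libraries. The difference from cobimetinib was 5.26 (SE 0.2, limma adjusted p = 0.11), on a scale where a missing peak is scored as 10. A region in MIP, the gene for a lens water channel, ranked 755 and 631 with TNFα and 20393 and 12178 untreated, with no peak under cobimetinib.

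The TNFα lost set was the smallest, with 128 intronic regions. A region of 463 bp in the first intron of HIC2, a zinc finger repressor gene, ranked 4299 and 2842 untreated, 6078 and 5293 with cobimetinib and 24264 and 25319 with TNFα. The first intron of SYNE3, a nuclear envelope protein, ranked 6230 and 3420 untreated, 14373 and 17302 with cobimetinib and 21854 and 28119 with TNFα. Intron 3 of MICAL2, an actin-oxidizing enzyme, ranked 6978 and 1321 untreated, 14089 and 14110 with cobimetinib and 26796 in 1 TNFα library with no peak in the other, and it covered the start of the microRNA gene MIR6124. A region in intron 9 of RIN2, a RAB5 exchange factor, ranked 11025 and 1482 untreated, 1912 and 1047 with cobimetinib and 21588 and 20928 with TNFα. RIN2 was below cobimetinib with TNFα by a difference of −2.04 (SE 0.15, limma adjusted p = 0.11) and also led the cobimetinib only set beside NEDD4L. That set further included regions of NDUFAF6, a complex I assembly factor, with cobimetinib ranks of 1649 and 1869 and TNFα ranks of 20621 and 31896, and of PSD3, an ARF6 exchange factor, with 2046 and 1710 against 41132 and 77375.

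**Figure D4:**
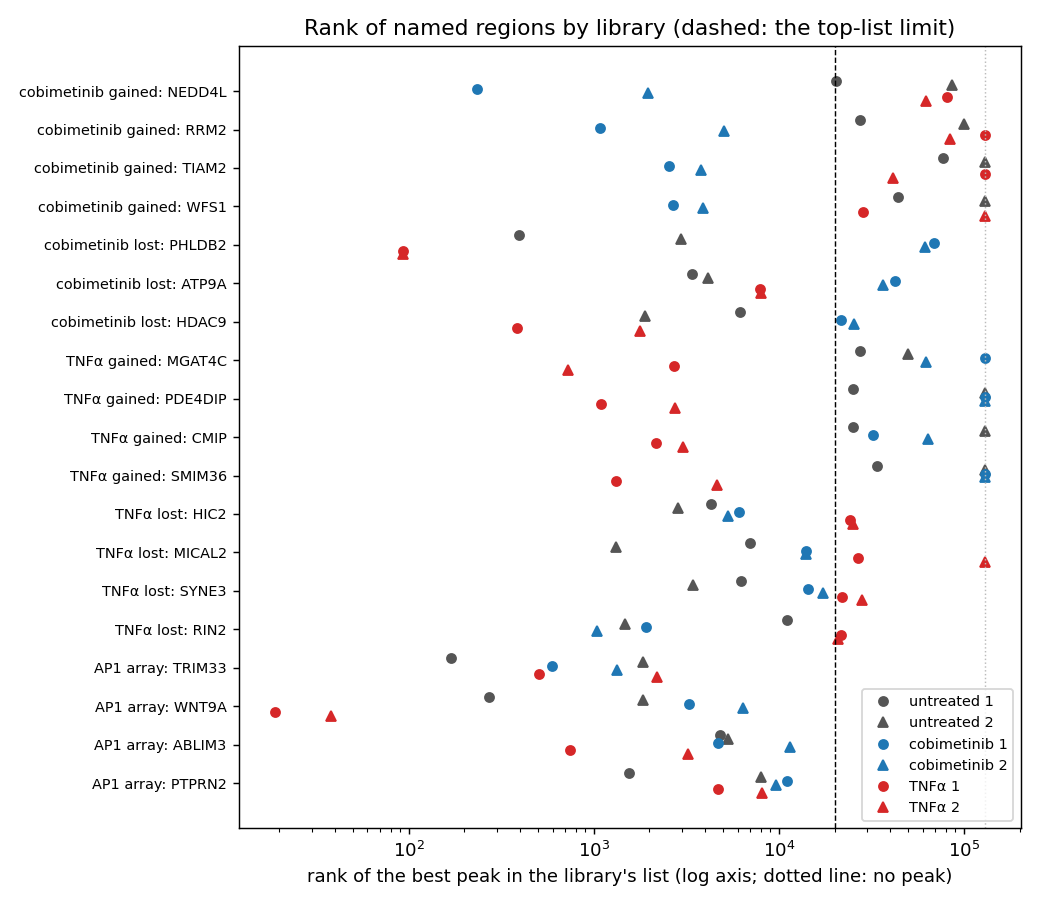
Rank of the best peak in each library's list (log axis, lower rank is stronger) for regions that lead the lost and gained sets and for 4 regions with AP1 arrays. The dashed line marks rank 20000 and points on the dotted line had no peak. The PHLDB2 region ranked 93 in both TNFα libraries and 61494 and 68635 in the cobimetinib libraries.

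Host genes rarely had several regions of one set. The 874 TNFα only regions fell in 822 genes, of which 14 had at least 3, and the 665 cobimetinib only regions fell in 624 genes, of which 13 had at least 3. By counts that were looked up after the values were seen, RAD51B had 4 TNFα only regions among its 34, and WWTR1 and FRMD6, a Hippo pathway regulator, had 3 each among 10 and 7. VPS13D, a lipid transfer protein gene, had 4 cobimetinib only regions among 8. EGLN3, a HIF prolyl hydroxylase gene, had 3 cobimetinib only regions and 2 TNFα lost regions among 9. No gene had more than 2 cobimetinib lost regions. Over all regions, 5.41% were TNFα only, 4.39% cobimetinib only and 1.0% TNFα lost. The genes named here were taken from those with the most regions of a set, so their counts were not tested and are not read as a response.

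The regions with AP1 arrays numbered 10 in introns, out of 36 over all classes, and 6 of the 10 were held by all libraries. In 7 of the 10, both TNFα libraries were above both cobimetinib libraries without overlap, beside 20.3% of all 38598 regions and 22.1% of intronic regions. In 1 the cobimetinib libraries were above the TNFα libraries, beside 21.6% of all regions and 19.2% of intronic regions. The region in the first intron of WNT9A (chr1:227934253-227935929), a Wnt ligand gene, carried 3 arrays and 15 AP1 words. It ranked 271 and 1857 untreated, 3258 and 6410 with cobimetinib and 19 and 38 with TNFα. The 3 groups did not overlap. TNFα was 2.6 above cobimetinib (SE 0.32, limma adjusted p = 0.11, and 0.0248 among regions held by at least 2 libraries).

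The other arrays shown varied. For ABLIM3, an actin-binding protein gene, ranks were 4788 and 5315, 4714 and 11545, and 741 and 3249. For PTPRN2, a receptor phosphatase of secretory granules, ranks were 1554 and 8032, 11020 and 9606, and 4713 and 8113, and its region held 43 AP1 words in all. The TRIM33 region, in the first intron of a SMAD4 ubiquitin ligase gene, had steps of 28 bp like ABLIM3 and ranked 170 and 1856 untreated, 597 and 1343 with cobimetinib and 505 and 2187 with TNFα. Its treated groups overlapped, and the difference of −0.1 was smaller than its error (SE 0.35, limma adjusted p = 1.0). The presence of an array was thus not accompanied by a higher TNFα rank at every locus.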

How the data were processed

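H3K27ac CUT&RUN peak lists of 6 HCT116 libraries were analyzed. Per the labels and methods, the authors trimmed reads with BBDuk, aligned them to hg38 with BWA 0.7.15, kept confidently mapped reads, and called peaks with MACS2 2.1.1 per library without an IgG background, in paired-end and in single-end mode, then merged both lists, taking the maximum score. Each deposited score is a whole number on MACS2's scale of −10 times log10 p, with a lowest value of 20. It rises with depth, which is unknown from these lists, so scores were ranked within a list or quantile normalized, and read counts could not be tested. The names in one list (untreated replicate 2) describe it as a merge after resequencing.

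The 20000 best peaks per library, ties in file order, were merged within 100 bp and classified with GENCODE version 44. All 25 chromosome names of the lists were in the reference and 0 peaks passed a chromosome end. A region without a peak was scored 10. Regions were tested with limma 3.58.1 (R 4.3.3, lmFit and eBayes with trend, two-sided) using the 4 libraries compared, after a check on simulated data. At the highest scores the fitted trend gave very large standard errors, so none are quoted for the 5 best-ranked regions. Classes were compared by an exact sign-flip permutation test over the 6 libraries (scipy 1.17.1). Words were counted in 500 bp at the midpoint. Same-numbered replicates did not deviate together (r = 0.0233, 0.057 and 0.023), so the numbers were not taken as pairs.

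Named hosts are the 15 with the most regions and list genes with at least 3. Named regions are, per set, the 4 with the best mean rank in the libraries that hold them, the 5 best over all libraries and up to 6 with AP1 arrays, for which shared picks count in both sets. Regions, lists and tests were chosen with earlier results of these data known. Columns of per-sample values without a sample: none. Some items that these rules name are not reported here.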

Additional observations from a re-analysis of the deposited data

How the results depend on the processing

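Counts of intronic distal regions depended on how many peaks entered. There were 5199 with the top 10000 peaks and 48448 with the top 40000, while other merge distances, a 2.5 kb limit and added transcript starts stayed within 1.5 times, and leaving out each library gave 9666 (without untreated replicate 2) to 12995. For TNFα against cobimetinib, calls among intronic regions were 0 as reported, 178 with normal scores of ranks, 3 with all 6 libraries in the fit, 1868 with array weights, 748 among regions held by at least 2 libraries and 0 with a replicate block. Leaving out 1 library gave 790 to 976, and nearly all of these calls were higher in the group left with 1 library, which is assumed to vary like the other group. Leaving out 1 library gave 0 to 4122 calls for cobimetinib against untreated (4122 without untreated replicate 1 and 666 without replicate 2) and 0 to 4027 for TNFα against untreated (4027 and 611). Both comparisons with untreated cells had 0 calls with the replicate block and in every alternative that kept all libraries. With the top 10000 peaks, cobimetinib gained fell to 339 regions, TNFα gained to 350, TNFα only to 566 and cobimetinib only to 350. With the top 40000, cobimetinib lost was 398, cobimetinib gained 1232, TNFα lost 305 and cobimetinib only 1477. With a required cover of 50% by a library's peaks, cobimetinib lost was 88 and TNFα lost 53. Leaving out a library relaxes the presence rule for its group by construction and gave 346 to 4009 cobimetinib lost (4009 without untreated replicate 1), 731 to 1619 cobimetinib gained, 227 to 3926 TNFα lost (3926 without untreated replicate 1), 678 to 1754 TNFα gained, 1138 to 1889 TNFα only and 889 to 1606 cobimetinib only regions. The share with the AP1 word was 14.8% in 200 bp and 41.7% in 1000 bp windows, 39.4% with the top 10000 and 17.6% with the top 40000 peaks, 29.7 to 38.1% leaving out each library (38.1% without untreated replicate 2), and 43.2% of regions held by at least 2 libraries, the last chosen after seeing the data. The first intron share was 30.2% and 21.9% with the top 10000 and 40000 peaks and 26.4 to 28.2% leaving out each library (28.2% without untreated replicate 2). Class differences kept their direction whichever library's value was left out of the mean, but 5 libraries cannot give a p under 0.0625. The regions were not rebuilt for this, so regions that only the omitted library held still counted in the classes. Differences in the AP1 share ran from 1.89 to 2.23 points against intergenic and 30.4 to 34.7 against promoter regions, those in width from 39.1 to 44.3 bp and −233.0 to −203.0 bp, and those in the share held from −0.802 to −0.104 and −36.7 to −27.8 points. PCDH7 led the hosts with merging within 1000 bp too, where 14 of the 15 leading hosts were the same.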
